A study of Mus musculus with 6 samples.

Results

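The genes described here are the nuclear genes for subunits of mitochondrial complexes I, II and III and of ATP synthase, which is complex V. They were taken by symbol from the deposited expression table (symbols starting with Nduf followed by a, b, c, s or v and a number, the symbols Sdha to Sdhd, and symbols starting with Uqcr or Atp5), and 11 symbols with -ps, the mark of a pseudogene, were left out. This gave 72 of 56496 genes: 42 of complex I, 4 of complex II, 8 of complex III and 18 of complex V. The choice by symbol kept 3 genes that the GENCODE M21 annotation lists as processed pseudogenes (Ndufa11b, Ndufb4c and Ndufs6b). It also kept Ndufb1, which that annotation lists as a non-coding RNA of a bidirectional promoter. The libraries were RNA-seq of bone marrow from female BALB/c mice that had been operated on to remove a tumour of the mouse mammary carcinoma line 4T1. Libraries Onway 1 to 3 came from mice that received Onway by gavage over 2 weeks, and their label is day 14. Libraries Control 4 to 6 came from mice that did not receive it, and their label is day 0. The effects of treatment and day therefore cannot be told apart. The sources used here do not give the composition of Onway, and the labels mark all libraries as wild type. Nothing in the labels says that each library is a separate mouse. The p-values then reflect only how these libraries spread, which may be technical.

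Complexes I to IV pass electrons from NADH and succinate to oxygen in the inner mitochondrial membrane, and complexes I, III and IV pump protons while doing so. ATP synthase lets the protons flow back through a rotating ring and makes ATP in its catalytic head. Most subunits are encoded in the nucleus and imported, and complexes I, III, IV and V each also hold subunits encoded by the mitochondrial genome, so the levels of many separate genes have to match. Neutrophils, the most abundant cells of marrow, are known to rely largely on glycolysis, whereas muscle is rich in mitochondria, and red cell precursors lose theirs as they mature.

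Marrow is a mixture, and its makeup differed between these libraries. Values are TPM, transcript abundance scaled to the same total in each library, so a lower value is a smaller share of the RNA. In bulk marrow, fewer cells of a type and less RNA per cell cannot be told apart. Haemoglobin genes took 11.6% to 26.6% of the TPM in Control and 9.39% to 33.9% in Onway, with the highest shares in Control 4 and Onway 3, and 0 of 8 erythroid markers passed the test. The 8 neutrophil markers, of which 0 passed the test, summed to 94048 to 204087 TPM in Control and to 102861 to 184154 TPM in Onway. All 9 skeletal muscle markers passed as lower in Onway, with sums of 734 to 4732 TPM in Control and 17.3 to 24.8 TPM in Onway, and so did all 7 megakaryocyte markers (1860 to 2107 TPM and 91.8 to 145 TPM). Markers of bone (5 of 6 lower, 398 to 1118 and 40.2 to 58.3 TPM), endothelium (4 of 5, 53.5 to 59.9 and 23.2 to 29.7 TPM) and macrophages (1 of 5, 211 to 330 and 113 to 143 TPM) had lower sums in Onway. For fat (0 of 3 tested, 41.9 to 82.2 and 7.54 to 23.0 TPM) the sums did not overlap either, and for B cells (0 of 6, 509 to 1315 and 793 to 1679 TPM) they did. At an unadjusted p under 0.05, 0 erythroid, 1 neutrophil, 3 fat and 3 B cell markers differed. No marker of the cell type lists was at 0 in every library of a group, while among 11 haemoglobin genes Hbb-bh0 was at 0 in all libraries and Hbb-bh2 in all Onway libraries. The part of these shifts in the values below was not tested.

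The summed level of the subunit genes was lower in Onway libraries for each of the 4 complexes, with similar ratios for complexes I, III and V and a smaller difference for complex II, while 1 single gene passed the test across all genes. Summed over the 72 genes, the Control libraries, in the order 4, 5 and 6 kept below, had 10455, 11723 and 11013 TPM. The Onway libraries, in the order 1, 2 and 3, had 7933, 9500 and 7720 TPM. Every Onway library lay below every Control library, and the means were 11064 ± 635 and 8384 ± 972 TPM (SD, n = 3 each), a ratio of 0.758. A further value per group left by the deposited means, described below, is not counted here. Its sum was 9304 TPM for Control, below Onway 2, and 8995 TPM for Onway. Of the 72 genes, 67 averaged 1 TPM or more across the 6 libraries and were tested, and all 67 had a negative log2 fold change, as did 46.4% of all 14192 tested genes. The median log2 fold change was −0.37 for the 67 genes and 0.03 for all tested genes, and the values ran from −1.19 for Atp5e to −0.06 for Sdha. At a Benjamini-Hochberg adjusted p under 0.05 in limma, 1 of the 67 genes was lower, Ndufa5, which is 1.49% of them beside 2.99% of all tested genes. None was higher, beside 0.233% of all tested genes. At an unadjusted p under 0.05, 27 of the 67 (40.3%) were lower, beside 8.42% of all tested genes. That count was 12 without Control 5, 14 without Control 6 and 11 without Onway 1, beside 7.39%, 6.63% and 6.67% of all tested genes, and 45 with the haemoglobin share as a covariate, beside 10.4%. In 45 of the 67 (67.2%) every Onway library lay below every Control library, which held for 11.5% of all tested genes. In the 22 genes whose groups overlapped, Onway 2 exceeded the lowest Control library in 21, Onway 1 in 5 and Onway 3 in 0.

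**Figure D1:**
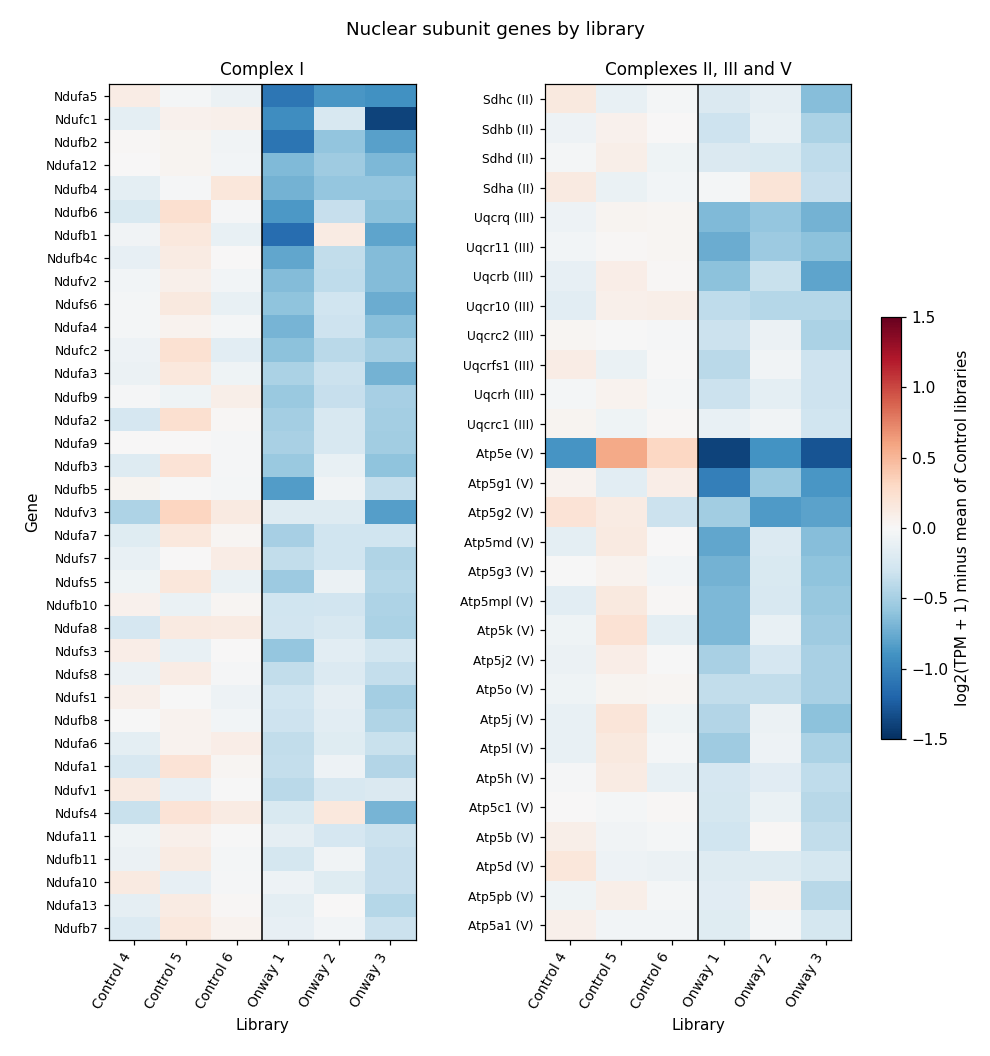
Heat maps of all but 1 of the tested subunit genes (rows, grouped by complex) in the 6 libraries (columns), as the difference in log2(TPM + 1) from the Control mean of that gene. The 3 Onway columns are below the Control mean for most genes, with the smallest differences in Onway 2.

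The libraries of a group differed from each other in a way that ran across the complexes. Onway 2 was the highest Onway library in 58 of the 67 genes, and Onway 3 was the lowest in 38 and Onway 1 in 27. Among the Control libraries, Control 5 was the highest in 40 genes and Control 4 the lowest in 35. The median difference from the Control mean over the 67 genes was −0.43, −0.21 and −0.49 on the log2 scale in the Onway libraries, and between −0.06 and 0.07 in the Control libraries. Within each group, the order of the summed level was also that of the neutrophil marker sum (Control 5, Control 6, Control 4, and Onway 2, Onway 1, Onway 3) and the reverse of that of the haemoglobin share. With haemoglobin genes left out and each library rescaled to the same total, the sums were 14237, 13266 and 13475 TPM in Control against 9156, 10484 and 11677 TPM in Onway, again without overlap. The order within the groups changed with this rescaling, and Control 4 and Onway 3 became the highest libraries of their groups. Muscle marker sums were lowest in Control 5. That library had the highest summed level of subunit genes in Control before the rescaling and the lowest after it.

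Each complex gave the same picture when its genes were summed. Complex I summed to 3856, 4389 and 4114 TPM in Control and to 2957, 3493 and 2868 TPM in Onway (means 4120 ± 267 and 3106 ± 338, ratio 0.754). This sum includes Ndufa4 and Ndufb4c, described below, with Control means of 325 and 163 TPM. Complex III summed to 1551, 1663 and 1637 TPM against 1178, 1309 and 1149 TPM (1617 ± 58.4 and 1212 ± 85.1, ratio 0.750). Complex V summed to 4749, 5373 and 4974 TPM against 3541, 4418 and 3485 TPM (5032 ± 316 and 3815 ± 523, ratio 0.758). Complex II differed the least, with 299, 298 and 288 TPM against 258, 280 and 218 TPM (295 ± 6.06 and 252 ± 31.2, ratio 0.852), and the difference between the complexes was not tested. In none of the 4 did the groups of 3 libraries overlap. A further value left by the deposited means, described below, is not counted here. The proportions between complexes I, III and V hardly moved: complex I stood at 0.819 ± 0.00764 of complex V in Control and at 0.816 ± 0.0227 in Onway, and complex III at 0.322 ± 0.011 and 0.320 ± 0.0206. Complex II stood at 0.0588 ± 0.00382 of complex V in Control and at 0.0662 ± 0.00564 in Onway, with overlap between the groups.

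**Figure D2:**
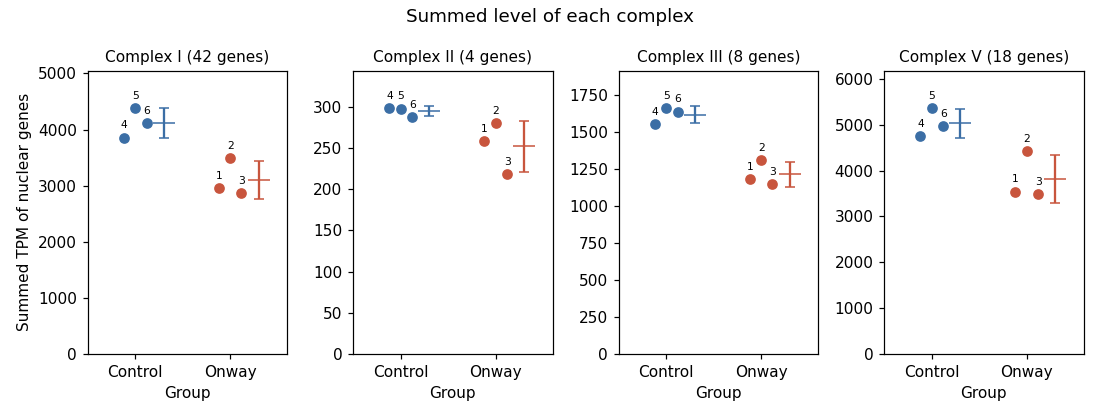
Summed TPM of the nuclear genes of complexes I, II, III and V (1 panel each, vertical axis from 0), with 1 point per library and the mean ± SD of each group. In each panel the 3 Onway points lie below the 3 Control points, and the ratio of the means is 0.754, 0.852, 0.750 and 0.758.

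Complex I takes electrons from NADH, and its nuclear core consists of 7 subunits that carry the flavin and the iron-sulphur clusters. The 7 core genes summed to 481, 479 and 484 TPM in Control and to 365, 416 and 366 TPM in Onway, with a median log2 fold change of −0.31. Ndufv2, a subunit of the NADH-oxidising tip, had the largest difference among them, at 65.6, 71.4 and 65.9 TPM in Control against 42.8, 51.8 and 42.8 TPM in Onway (log2 fold change −0.56, SE 0.16, adjusted p = 0.15). Its partner Ndufv1, which binds the flavin, was at 63.8, 53.2 and 58.1 TPM against 43.6, 49.3 and 50.1 TPM (adjusted p = 0.50). Ndufs1, the largest iron-sulphur subunit, was at 42.5, 39.9 and 38.2 TPM against 32.6, 36.4 and 27.9 TPM (adjusted p = 0.47). These 3 genes had no overlap between the groups, and none passed the test. Ndufs3, Ndufs7 and Ndufs8, which belong to the arm that leads electrons to quinone, had log2 fold changes of −0.34, −0.37 and −0.31 (adjusted p = 0.46, 0.35 and 0.45).

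Most of the other genes with complex I symbols encode accessory subunits, which surround the core. The median log2 fold change of the tested ones was −0.42, with Ndufa4 and Ndufb4c, described below, among them. Ndufa5, an accessory subunit of the peripheral arm, was at 82.6, 74.5 and 71.9 TPM in Control against 35.5, 41.1 and 40.1 TPM in Onway. The highest Onway library lay far below the lowest Control library, and Ndufa5 fell by 0.96 on the log2 scale (SE 0.15, adjusted p = 0.016). Its call was lost without Control 4 (adjusted p = 0.052), Control 6 (0.070), Onway 1 (0.079) or Onway 2 (0.052), and after rescaling without haemoglobin genes (0.056). The log2 fold change of Ndufa5 in these fits lay between −1.0 and −0.89. Ndufb2, an accessory subunit of the membrane arm, was at 76.5, 77.7 and 73.2 TPM against 35.0, 50.03 and 42.6 TPM (log2 fold change −0.83, SE 0.18, adjusted p = 0.053). Ndufa12, which sits on the peripheral arm, was at 155.6, 159 and 151 TPM against 98.2, 107 and 96.6 TPM (log2 fold change −0.62, SE 0.15, adjusted p = 0.091). Both had Control libraries close together and all Onway libraries well below them.

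Among the most abundant complex I symbols, Ndufa4 was at 318, 337 and 319 TPM in Control against 199, 261 and 210 TPM in Onway (log2 fold change −0.55, SE 0.17, adjusted p = 0.20). Its product was first assigned to complex I and is now known as a subunit of cytochrome oxidase. Its relative Ndufa4l2, a gene induced by low oxygen, reached at most 0.22 TPM and was not tested. Ndufb7, a membrane arm subunit, was at 191, 247 and 228 TPM against 202, 213 and 176 TPM, with overlap between the groups (log2 fold change −0.17, adjusted p = 0.75). Ndufb4 was at 18.8, 20.7 and 23.7 TPM against 12.4, 13.7 and 13.7 TPM, while Ndufb4c, annotated as a processed pseudogene in GENCODE M21, was at 149, 177 and 163 TPM against 94.0, 125 and 104 TPM. Reads of copies this alike can be counted for the wrong one, so the separate values of Ndufb4 and Ndufb4c are uncertain. Ndufb4c stood at 7.79 ± 0.861 times Ndufb4 in Control and 8.09 ± 0.907 times in Onway. Ndufb1 was at 69.6, 80.5 and 66.6 TPM against 32.0, 78.6 and 41.1 TPM, where Onway 2 lay within the Control range. The genes Ndufa11b, Ndufs6b and a second gene entry named Atp5o were listed at 0 in every library, and Ndufb11b had 0.05 TPM in Control 6 and 0 elsewhere.

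Complex II, succinate dehydrogenase, belongs to both the citric acid cycle and the respiratory chain, and it has no subunit from the mitochondrial genome. Its catalytic flavoprotein Sdha had the smallest fold change of the 67 genes. It was at 73.4, 62.7 and 65.4 TPM in Control against 65.6, 76.9 and 52.6 TPM in Onway, with Onway 2 the highest of all 6 libraries (log2 fold change −0.06, SE 0.19, adjusted p = 0.94). The sign of Sdha turned without Control 4 (0.01), without Onway 3 (0.08) and without both (0.15). The iron-sulphur subunit Sdhb was at 73.9, 81.8 and 78.6 TPM against 62.9, 72.4 and 56.1 TPM. The membrane anchors Sdhc and Sdhd were at 45.4, 37.8 and 40.3 against 35.2, 37.4 and 26.0 TPM, and at 107, 116 and 104 against 93.8, 93.1 and 83.4 TPM. In Sdhb, Sdhc and Sdhd the groups did not overlap, with log2 fold changes of −0.29, −0.33 and −0.27 (adjusted p = 0.51, 0.51 and 0.52).

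Complex III hands electrons from quinol to cytochrome c. Its core genes in the set, for the Rieske iron-sulphur protein and the 2 large matrix-side subunits, summed to 290, 268 and 279 TPM in Control against 234, 267 and 218 TPM in Onway, with a median log2 fold change of −0.26. The 5 genes for its small subunits summed to 1261, 1395 and 1358 TPM against 944, 1041 and 931 TPM, with a median of −0.58. Uqcrq, the small subunit that binds near cytochrome b, was at 167, 181 and 178 TPM in Control against 110, 117 and 107 TPM in Onway (log2 fold change −0.65, SE 0.15, adjusted p = 0.081). Uqcr11 was at 223, 233 and 234 TPM against 137, 158 and 149.9 TPM (log2 fold change −0.64, SE 0.16, adjusted p = 0.093), and Uqcrb at 235, 274 and 259 TPM against 167, 203 and 147 TPM (−0.58, SE 0.19, adjusted p = 0.21). In these 3 genes the groups did not overlap, and Uqcrb spread the most in Onway (SD 28.3 TPM). The most abundant, the hinge protein gene Uqcrh and Uqcr10, had means of 381 ± 13.4 and 318 ± 23.1 TPM, and of 296 ± 26.9 and 222 ± 4.25 TPM, both without overlap (adjusted p = 0.54 and 0.32). Of the core genes, Uqcrc1 (126 ± 4.91 and 113 ± 10.2 TPM) and Uqcrfs1 (72.8 ± 5.42 and 61.1 ± 8.08 TPM) overlapped between the groups, and Uqcrc2 (80.2 ± 1.29 and 65.5 ± 8.99 TPM) did not.

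In ATP synthase the genes of the c ring had the largest difference by both the median and the sum. The head genes, with Atp5e counted among them, had a median log2 fold change of −0.22, those of the peripheral stalk, which holds the head still, −0.32, the other membrane subunits −0.44, and the genes for subunit c −0.72. By their sums the order of head and stalk was the other way, with ratios of 0.774 for the head, 0.814 for the peripheral stalk, 0.735 for the other membrane subunits and 0.654 for subunit c. The place of the head in this order rested on Atp5e, with a ratio of 0.404 and a wide Control spread (391 ± 177 TPM). Ratios of the other head genes ran from 0.838 to 0.897, each above that of the peripheral stalk. Differences between these subgroups were not tested. Atp5b, the catalytic beta subunit and the most abundant of the 67 genes, was at 1002, 912 and 924 TPM in Control against 771, 956 and 730 TPM in Onway, where Onway 2 lay inside the Control range (log2 fold change −0.22, SE 0.17, adjusted p = 0.67). Its partner Atp5a1, the alpha subunit, also overlapped (286 ± 14.2 and 256 ± 21.8 TPM, adjusted p = 0.73). Atp5e, the small epsilon subunit of the central stalk, had the largest fold change of the 67 genes and the widest Control spread. It was at 193, 533 and 446 TPM in Control against 136, 192 and 145 TPM in Onway, so that Control 4 stood barely above Onway 2 (log2 fold change −1.19, SE 0.39, adjusted p = 0.23). Without Control 4 the difference of Atp5e passed the test (log2 fold change −1.64, adjusted p = 0.013).

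Subunit c forms the rotor ring through which the protons pass, and Atp5g1, Atp5g2 and Atp5g3 encode the same mature protein with different import sequences. Together they summed to 428, 418 and 422 TPM in Control against 240, 331 and 258 TPM in Onway, a ratio of 0.654. Atp5g1 was at 156, 135 and 161 TPM against 73.5, 102 and 81.5 TPM (log2 fold change −0.82, SE 0.19, adjusted p = 0.073). Atp5g3, the most abundant, was at 259, 271 and 253 TPM against 159, 223 and 171 TPM (−0.51, SE 0.19, adjusted p = 0.28). Atp5g2 was at 12.7, 11.9 and 8.54 TPM against 7.28, 5.64 and 5.85 TPM (−0.72, SE 0.20, adjusted p = 0.15). None of the 3 overlapped between the groups. Atp5g1 held 35.6% ± 3.00 of the subunit c TPM in Control and 31.0% ± 0.529 in Onway, and Atp5g3 held 61.8% ± 2.73 and 66.7% ± 0.723. Among the small membrane subunits, Atp5mpl was the most abundant, at 423, 525 and 479 TPM against 297, 401 and 319 TPM (−0.49, SE 0.19, adjusted p = 0.30).

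The gamma subunit Atp5c1, the shaft that turns inside the head, averaged 180 ± 2.83 TPM in Control against 150 ± 16.7 TPM in Onway without overlap (adjusted p = 0.57). It has an alternative exon next to its last one, known to be skipped in heart and skeletal muscle, and muscle markers differed between the groups, so its sequence is shown. In GENCODE M21 it is exon 9 of 10, 37 bases on the minus strand of chr2:10056770-10056806 (GRCm38), and including it brings in the stop codon TAA, in capitals.
Atp5c1 exon 9: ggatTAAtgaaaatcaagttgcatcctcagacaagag
The transcript with this exon has 1166 bases and the one without it 1060. They differ by more than the 37 bases of the exon, so their shares do not measure its skipping alone. The transcript without this exon held 44.4%, 14.3% and 42.3% of the TPM of both forms in the Control libraries. In the Onway libraries it held 24.2%, 20.1% and 32.0%. The groups overlapped. Among the Control libraries the share was lowest in Control 5, which also had the lowest muscle marker sum of that group. Other libraries did not keep this order. Control 4 had a larger share than Control 6, with a muscle marker sum of 2009 against 4732 TPM. Every Onway library had a larger share than Control 5, with muscle marker sums of 17.3 to 24.8 against 734 TPM. The part of muscle RNA in these shares was not tested. Both forms together made up 94.8% to 97.4% of the TPM of the gene. These are estimates from short reads and were not tested.

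**Figure D3:**
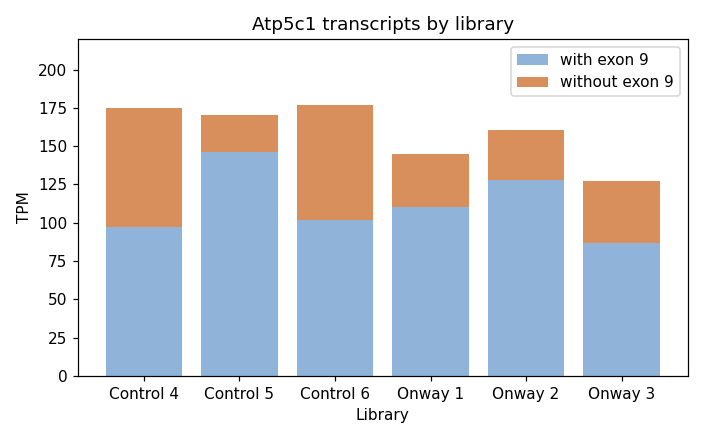
Stacked bars of the TPM of the Atp5c1 transcript with exon 9 and of the one without it in each library. The transcripts also differ outside this exon. The form without the exon takes the largest part in Control 4 and Control 6 (44.4% and 42.3% of both forms) and the smallest in Control 5 (14.3%).

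Genes of short transcripts differed more than genes of long ones within the set. The Spearman correlation of the log2 fold change with transcript length was 0.566 across the 67 genes, which share the same 6 libraries, and 0.16 across the other tested genes; with the mean TPM it was 0.0492 in the set. The 22 genes under 600 bases had a median log2 fold change of −0.50 and 17 of them did not overlap. The 1376 other tested genes of that length had a median of 0.09, and 8.5% of them were lower without overlap. The 26 genes of 600 to 1000 bases had a median of −0.41 against −0.13 for other genes. Above that, the medians were −0.27 for 9 genes of 1000 to 1500 bases, −0.19 for 8 genes of 1500 to 2500 bases, and −0.19 for the remaining 2, Ndufs1 and Sdha. Among the other tested genes, 196 lay in the middle range of the set for both length (562 to 1168 bases) and level (66.5 to 176 TPM), and their median was −0.14, with 34 (17.3%) lower without overlap.

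**Figure D4:**
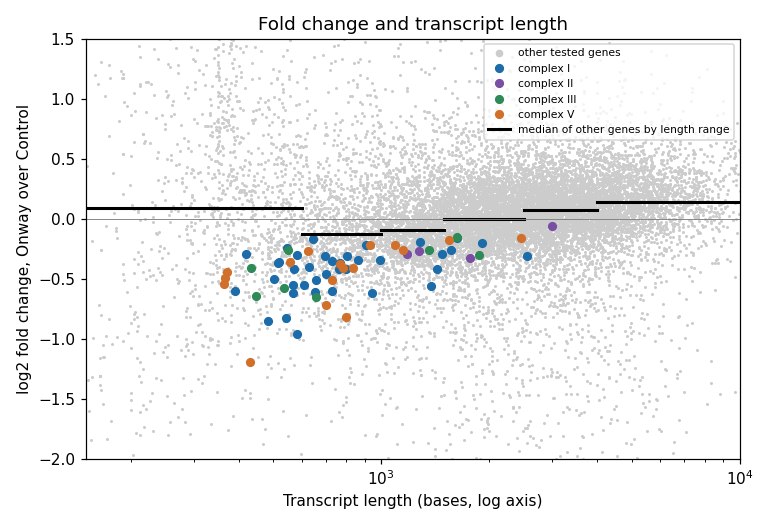
Log2 fold change (Onway over Control) against transcript length in bases on a log axis, for the tested subunit genes and, in grey, the other tested genes, of which those beyond the axis range are not drawn. The subunit genes under 600 bases lie between −1.19 and −0.24, and those of 1500 bases or more between −0.33 and −0.06.

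Other families of housekeeping genes gave smaller medians of the same sign. Genes for mitochondrial ribosomal proteins had a median log2 fold change of −0.26 (73 of 78 tested genes negative, 26 or 33.3% without overlap), those for cytosolic ribosomal proteins −0.16 (79 of 82, 22 or 26.8% without overlap) and those for proteasome subunits −0.18 (35 of 38, 5 or 13.2% without overlap), beside 11.5% of all tested genes without overlap. None of these genes passed the test in limma, where 12, 3 and 0 of them had an unadjusted p under 0.05. Over all tested genes, 8.42% were lower at that unadjusted level. The median transcript lengths of these families, in the same order, were 1121, 701 and 1357 bases, against 730 for the subunit genes. Length was not allowed for in these medians, and the difference between these families and the subunit genes was not tested.

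Genes that build or feed the complexes were also followed. Of the 15 tested nuclear genes of cytochrome oxidase, complex IV, all had negative log2 fold changes with a median of −0.44. Of these 15, 11 (73.3%) had no overlap, beside 11.5% of all tested genes, and 2 passed the test as lower, beside 2.99%. Those 2 were Cox8b (40.8, 18 and 80.0 TPM in Control and listed at 0 in all Onway libraries, with an adjusted p of 0.0024) and Cox7a1 (18.2, 9.74 and 46.8 TPM against 2.24, 2.16 and 1.09 TPM, adjusted p = 0.044), which encode the forms of these subunits found in heart and muscle. Both followed the order of the muscle marker sums in Control. Assembly factors passed the test in 0 of 14 cases for complex I, 0 of 3 for complex II, 0 of 6 for complex III and 0 of 3 for complex V, with medians of −0.22, 0.00, −0.17 and −0.22. The same held for 0 of 13 citric acid cycle genes (median −0.15), for cytochrome c and cytochrome c1 (Cycs and Cyc1, median −0.35), and for 0 of 11 tested regulators of mitochondrial genes such as Nrf1, Gabpa, Esrra and Tfam, of which 2 had a negative sign (median 0.08). At an unadjusted p under 0.05 in limma there were 2, 0, 1 and 0 assembly factors of complexes I, II, III and V, 1 citric acid cycle gene, 1 of the cytochrome genes and 0 regulators. Over all tested genes, 8.42% were lower at that level. In none of these lists was a gene higher by the adjusted test.

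The 13 protein genes of the mitochondrial genome had a median log2 fold change of −0.09, and 1 of them passed the test. This was mt-Co3, a subunit of cytochrome oxidase, at 772, 520 and 501 TPM in Control against 261, 291 and 306 TPM in Onway (log2 fold change −1.04, SE 0.21, adjusted p = 0.047). At an unadjusted p under 0.05 in limma, 3 of the 13 were lower, beside 8.42% of all tested genes. The same 3 (23.1%) had no overlap, beside 11.5%. Besides mt-Co3 they were mt-Nd3 (log2 fold change −1.05, adjusted p = 0.051) and mt-Atp6 (−0.93, adjusted p = 0.13). The nuclear genes of complex V stood at 0.299, 0.406 and 0.346 times the sum of the mitochondrial Atp genes in Control and at 0.226, 0.231 and 0.304 times in Onway. That mitochondrial sum was mostly mt-Atp8, with a Control mean of 14102 TPM beside 392 TPM for mt-Atp6. For complex I against the mitochondrial Nd genes the values were 0.797, 1.18 and 0.869 in Control and 0.746, 0.706 and 0.913 in Onway. In both ratios the groups overlapped.

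Nuclear respiratory genes are known to share promoter elements for NRF1, for ETS factors such as GABP, for YY1 and for the ERR receptors, so the promoters of the set were searched on both strands for the NRF1 palindrome with any base at its sixth position, CCGGAAGT (ETS), AAGATGGC (YY1) and AAGGTCA (ERR). Windows from 250 bases before to 50 bases after the gene start were taken from RefSeq (GRCm38.p6), and 56 of the 67 tested genes matched. The NRF1 palindrome was found in 16 (28.6%) of the 56, beside 11.6% of 9730 tested genes and 5.19% of all 27025 genes with a window. For AAGATGGC it was 10 (17.9%) beside 5.38% and 3.19%, for AAGGTCA 8 (14.3%) beside 4.06% and 5.38%, and for CCGGAAGT 4 (7.14%) beside 9.27% and 4.31%. The median log2 fold change was −0.35 with the NRF1 palindrome and −0.38 without it, and −0.48 with AAGGTCA and −0.36 without it. A match describes the letters of the window and not a bound site.

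Some matches of genes with small p-values described above are shown here, to let the cores and their flanks be compared. They are in the direction of the gene, with the motif in capitals. Among the matches not shown are AAGGTCA in Atp5e and both the NRF1 palindrome and AAGGTCA in Atp5g3. The first 5 lines are stretches of 30 bases around the NRF1 palindrome on the minus strand, from chr6:24527697-24527726, chr16:37654540-37654569, chr16:37654428-37654457, chr16:37654371-37654400 and chr15:102671070-102671099. The next lines are stretches of the same length and strand around AAGGTCA of Ndufb4 (chr16:37654405-37654434) and CCGGAAGT of Uqcr11 (chr10:80406869-80406898). The last line is the window of Ndufb2 up to its start, chr6:39592315-39592564 on the plus strand, which holds AAGGTCA.
Ndufa5: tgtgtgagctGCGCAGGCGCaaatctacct
Ndufb4 first: gagaagcagtGCGCACGCGCagaatacgcg
Ndufb4 second: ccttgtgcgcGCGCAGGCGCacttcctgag
Ndufb4 last: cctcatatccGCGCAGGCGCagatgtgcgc
Atp5g2: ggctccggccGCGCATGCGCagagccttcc
Ndufb4 AAGGTCA: tcctgagcctgAAGGTCAgactcgagaggg
Uqcr11: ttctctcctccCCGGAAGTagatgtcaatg
Ndufb2: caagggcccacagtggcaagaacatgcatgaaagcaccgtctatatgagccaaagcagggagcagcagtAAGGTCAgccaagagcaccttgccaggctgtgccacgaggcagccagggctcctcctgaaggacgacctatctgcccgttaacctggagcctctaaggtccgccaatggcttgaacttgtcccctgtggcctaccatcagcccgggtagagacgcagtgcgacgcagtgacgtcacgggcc
Ndufb4 carries 3 NRF1-type cores in its window, and Ndufa5 and Atp5g2 carry 1 each with different middle bases. In GENCODE M21, whose starts can differ from those of RefSeq, Ndufa5, Atp5g2 and Ndufb4 start at 24528013, 102672352 and 37654453. By these starts the stretches of Ndufa5 and Atp5g2 lie inside the genes. So do the last NRF1 stretch and the AAGGTCA stretch of Ndufb4. The second Ndufb4 stretch spans the start of that gene, and the first lies before it.

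The authors' deposited table also gives a mean for each group, and these are not means of the 3 libraries. They lay below the mean of the 3 libraries by over 0.011 TPM for 41512 transcripts in Control and 40332 in Onway. Library values have 2 decimals, and 3 times the deposited mean was no multiple of 0.01 TPM for 71142 transcripts in Control and 69692 in Onway, whereas 4 times the mean was one for every transcript. In addition, 4 times the mean never fell short of the sum of the 3 libraries by over 0.011 TPM, and what remained added up to 1000000 TPM for either group, as a single library does. The deposited means were therefore treated as means of 4 libraries that include the 3 above. What 4 times the authors' mean leaves beyond the 3 libraries is called the further value here. It was computed after seeing the data, and it is not one of the libraries in the groups. In the authors' deposited table the Onway mean was below the Control mean for 67 of the 67 genes, and the summed means were 10624 and 8537 TPM, but they contain the libraries above. The further values alone came to 9304 TPM for Control against 8995 TPM for Onway. The further Control sum thus lay below library Onway 2 (9500 TPM). The same held for complex I (3386 against 3493 TPM), complex II (258 against 280 TPM) and complex V (4247 against 4418 TPM). For complex III the further Control sum lay above Onway 2 (1413 against 1309 TPM). The log2 ratio of the further values had a median of −0.09 over the 67 genes (0.05 over all tested genes). In 18 of the 67 the further Onway value was the higher. The further Control value lay below all 3 Control libraries in 53 of the 67 genes, and the further Onway value lay within the range of the Onway libraries in 47 and above it in 17. Ndufa5 had a further value of 71.1 TPM for Control against 60.6 TPM for Onway. For Atp5e they ran the other way, at 169 and 281 TPM.

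**Figure D5:**
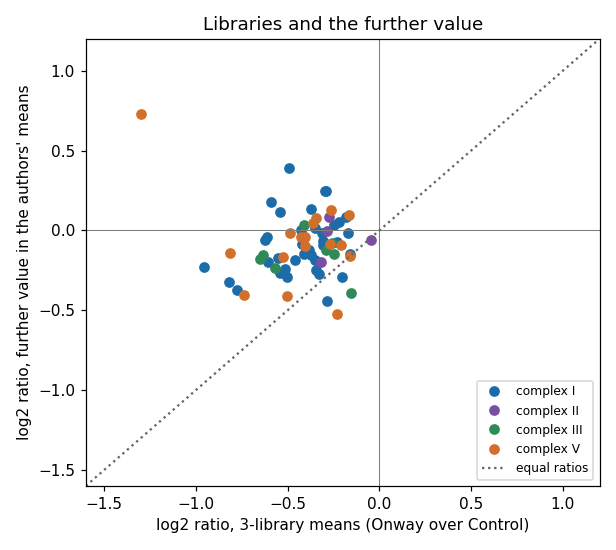
Log2 ratio (Onway over Control) of the further value left by the authors' deposited means against the log2 ratio of the means of the 3 libraries, 1 point per tested subunit gene. All points are below 0 on the horizontal axis, whereas 18 of 67 are above 0 on the vertical axis.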

How the data were processed

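The authors deposited 1 table of TPM for 158850 transcripts in 6 libraries, with transcript lengths and group means. Per the labels' protocols, libraries were made with a SMARTer kit from RNA isolated on columns. The submitters' processing notes name GRCm38 and mm10. The sources used here do not give the aligner or quantifier. TPM sums to a fixed total per library, so depth is unknown and no counting interval is given. The Onway columns carry another prefix and were matched by number.

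Transcript TPM were summed by gene identifier. Genes averaging 1 TPM or more were tested on log2(TPM + 1) with limma 3.58.1 (R 4.3.3; trend and robust moderation, two-sided, all 6 libraries). Fold changes are on that scale, which understates the change of low genes. P-values were Benjamini-Hochberg adjusted over 14192 genes, with a threshold of 0.05. Sums, shares and medians over lists carry no test. Gene types and exons are from GENCODE M21. Lengths are means over a gene's transcripts, weighted by TPM.

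The genes and lists were chosen with earlier results of these data known. Genes named are those past the threshold, the 3 with the smallest p and the 2 most abundant of complexes I, III and V, the complex I core, complex II, subunit c, Ndufa4, Ndufa4l2 and genes not tested. From other lists, genes past the threshold are named. The values of 1 gene of the complex I core are not reported here. Other genes were named after their values were seen. Alternatives covered pseudocount, filter, scaling, moderation, transcripts used, a haemoglobin covariate and left-out libraries.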

Additional observations from a re-analysis of the deposited data

How the results depend on the processing

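Under every alternative run, the median log2 fold change of the 67 genes stayed between −0.47 and −0.33, while that of all tested genes stayed between −0.06 and 0.14. The number of subunit genes called lower (1) was 2 with a pseudocount of 0.1 TPM and with Ensembl transcripts only, 4 with median centring and with quantile normalization, 6 with the haemoglobin share as a covariate, 0 after rescaling without haemoglobin genes, and 2 without both Control 4 and Onway 3. Leaving out 1 library at a time gave 0 to 1. Over all genes, 424 were lower and 33 higher. These counts became 183 and 20 with a mean of at least 5 TPM, and 213 and 98 without both Control 4 and Onway 3, and the higher count was 59 with median centring and 56 with quantile normalization. Leaving out 1 library gave 249 to 481 lower and 17 to 87 higher genes. Higher genes made up 7.22% of the calls, and 20.7% without Control 4, 20.2% without Onway 1, 22.1% without Onway 3 and 31.5% without that pair. The complex II median was −0.17 without both, against −0.28. For Sdha, leaving out 1 library gave −0.19 to 0.08 (0.01 without Control 4, 0.08 without Onway 3), and leaving out that pair gave 0.15. The cause of these shifts was not tested. The adjusted p of Ndufa5 ran from 0.013 to 0.079. No paired analysis was possible because the groups share no replicate number. TPM keeps no read depth, so what depth limits cannot be given.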

Other observations

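Ndufs3, a core gene of complex I, was the only one of the tested subunit genes with transcripts whose mean share of the gene's TPM differed by over 10 percentage points between the groups, among 193 transcripts with a mean of at least 1 TPM. It was chosen after its values were seen and was not tested. A transcript of 707 bases, annotated as not coding in GENCODE M21, held 0.478%, 6.11% and 0% of the TPM of Ndufs3 in the Control libraries (4, 5 and 6), against 26.6%, 10.6% and 15.2% in the Onway libraries (1, 2 and 3), without overlap between the groups. The main coding transcript of Ndufs3 was at 54.3, 43.1 and 52.1 TPM in Control and 22.6, 40.5 and 34.9 TPM in Onway. Newly assembled transcripts held at most 36.4% of the TPM of a subunit gene, in Sdha.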
